A study of Homo sapiens with 6 samples.

Results

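The miR-302/miR-367 cluster is a run of 5 microRNA (miRNA) genes, MIR302A, MIR302B, MIR302C, MIR302D and MIR367, that are cut from a shared precursor. It was described here together with MIR302CHG, the host gene that is transcribed through the cluster, and LARP7, the protein-coding gene that overlaps it on the opposite strand. These 7 genes were taken by Ensembl identifier from the 40396 genes of the deposited expression table, and all 7 passed the filter on low values that left 16371 genes for testing. They were selected on their FPKM in these same 6 libraries, which were known when the genes were chosen, so their levels and fold changes are a description with no test.

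RNA was measured in H1 cells, a human embryonic stem cell line, on day 3 of differentiation to definitive endoderm (DE), the germ layer that gives rise to gut, liver and pancreas. All samples grew on Matrigel in DMEM with B27, Glutamax and 50 ng/mL activin A (AA), which signals through SMAD proteins, and received the Wnt pathway activator CHIR99021 at 2.5 µM for the first 24 h. The 3 SAR samples also received 0.5 µM saracatinib (SAR), known as an inhibitor of Src family kinases, on all days. The 3 control samples received the same volume of its solvent DMSO. The study reported that this dose did not effectively lower Src phosphorylation, while that of focal adhesion kinase fell at some sites. The comparison asks how gene expression differed when SAR was present throughout differentiation, in 1 cell line, and the labels do not say whether the 3 samples of a group came from separate cultures, so the spread between them may be technical.

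The libraries were made from RNA captured with oligo(dT) beads, and their depth was 18877964 to 24419937 reads in the control group and 16681280 to 18389543 reads in the SAR group. Values are FPKM, in which the fragments of a gene are divided by its length and by the depth of the library. Whole numbers of reads behind the FPKM were derived from the table. DE markers were abundant in both groups: SOX17 was at 31.6 ± 1.84 FPKM in control (SD, n = 3) and 67.5 ± 18.3 with SAR, and CER1 at 4104 ± 534 and 1683 ± 35.4.

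The cluster is known as one of the most active miRNA loci of human embryonic stem cells, where POU5F1, SOX2 and NANOG bind its promoter, and its expression falls as cells mature. A mature miRNA guides an Argonaute protein to messenger RNAs that pair with its seed, the bases near its 5′ end, and lowers their stability and translation. The miR-302 family is known to act on cell cycle inhibitors and on the Nodal antagonists LEFTY1 and LEFTY2, which ties it to the choice between germ layers.

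The sequences of the main arm of each mature miRNA are shown because the shared seed is what sorts the 5 genes into a pair of targeting groups. They are the RefSeq sequences on GRCh38.p14, 5′ to 3′, with the seed (bases 2 to 8) in capitals.
hsa-miR-302a-3p: uAAGUGCUuccauguuuugguga
hsa-miR-302b-3p: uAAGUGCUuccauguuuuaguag
hsa-miR-302c-3p: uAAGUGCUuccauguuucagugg
hsa-miR-302d-3p: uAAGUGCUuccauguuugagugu
hsa-miR-367-3p: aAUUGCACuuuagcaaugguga
The 4 miR-302 sequences share the seed AAGUGCU, and miR-367 has the seed AUUGCAC. Counted from 1 at the 5′ end, miR-302a differs from miR-302b by G19A, G22A and A23G, from miR-302c by U18C, G19A and A23G, and from miR-302d by U18G, G19A and A23U. The first 17 bases are therefore the same in all 4, and every difference lies at the 3′ end, outside the seed.

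The 5 genes lie on the minus strand of chromosome 4 within 684 bases (GENCODE 29 on GRCh38). In the direction of transcription the order is MIR302B (chr4:112648485-112648557), MIR302C (chr4:112648363-112648430), MIR302A (chr4:112648183-112648251), MIR302D (chr4:112648004-112648071) and MIR367 (chr4:112647874-112647941), with gaps of 54 to 111 bases between neighbours. MIR302CHG (ENSG00000249532, chr4:112646476-112650051) has 743 exon bases in 5 blocks. MIR302C, MIR302A, MIR302D and MIR367 lie in 1 intron of this host (chr4:112647468-112648512), while MIR302B shares 45 of its 73 bases with a host exon. All 5 also lie in 1 intron of LARP7 (chr4:112647835-112649534, 1700 bases), which runs on the plus strand. Of the host's exon bases, 302 (40.6%) lie opposite LARP7 exons. Whether reads were counted by strand is not given in the sources used here, and without strand the reads of the cluster, of its host and of unspliced LARP7 RNA cannot be told apart where they overlap.

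**Figure D1:**
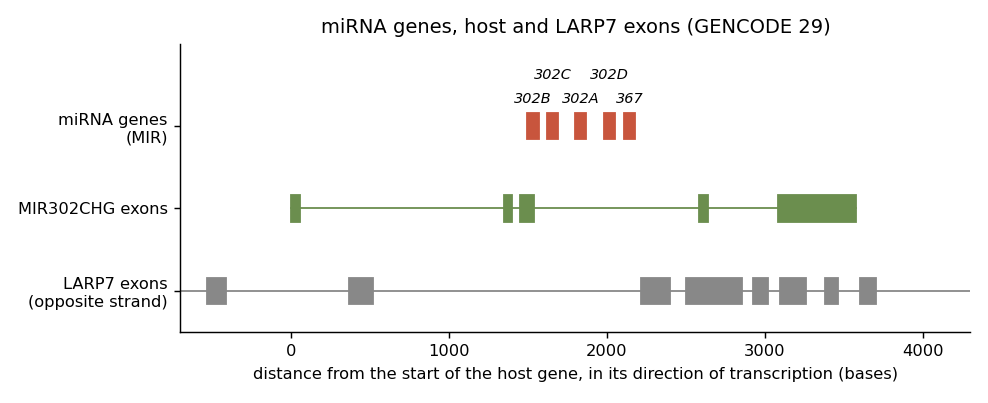
The map plots the 5 miRNA genes (red, names without MIR), the exons of MIR302CHG (green) and the exons of LARP7 (grey, opposite strand) against the distance in bases from the start of the host gene, in its direction of transcription. The miRNA genes fall between the third and the fourth host exon, apart from the part of MIR302B within the third, and where the drawn LARP7 gene has no exon.

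All 5 miRNA genes of the cluster were higher with SAR, by 2.77 to 4.39 times in mean FPKM, and for each of them the 3 SAR libraries lay above the 3 control libraries. Their host MIR302CHG was low and overlapped between the groups, and LARP7 differed by less than its spread between libraries. Mature miRNAs are too short and lack the poly(A) tail for this library type, so the reads on these genes come from longer RNA that runs through them and do not measure the mature miRNA. The precursor of the cluster and unspliced LARP7 RNA cannot be told apart in these reads.

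MIR367, the last gene of the cluster to be transcribed, had the highest level in each of the 6 libraries. It was at 13.4, 12.0 and 12.5 FPKM in control replicates 1, 2 and 3 and at 52.0, 46.9 and 44.0 FPKM in SAR replicates 1, 2 and 3. The lowest SAR library was thus more than 3 times the highest control library. The means were 12.6 ± 0.709 FPKM in control (SD, n = 3) and 47.6 ± 4.07 with SAR, a log2 fold change of 1.90 with a standard error of 0.0775 on the log2(FPKM + 0.1) scale. These values rest on 20, 20 and 16 reads in control and 59, 54 and 55 reads with SAR. A fit on recovered reads (voom) gave every cluster gene a larger standard error, from 0.229 for MIR367 to 0.385 for MIR302B.

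MIR302D was at 7.38, 7.23 and 6.23 FPKM in control and at 27.3, 26.9 and 30.4 FPKM with SAR. The 3 libraries of each group were close to each other and the groups were far apart, with means of 6.95 ± 0.625 and 28.2 ± 1.90 FPKM. The log2 fold change was 2.01 (standard error 0.0849), on 11, 12 and 8 reads in control and 31, 31 and 38 with SAR. In the fit on recovered reads the standard error was 0.280.

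MIR302A was at 11.2, 8.90 and 9.21 FPKM in control and at 30.4, 26.5 and 24.4 FPKM with SAR. It had the smallest difference of the 5, with means of 9.79 ± 1.27 and 27.1 ± 3.03 FPKM and a log2 fold change of 1.46 (standard error 0.115). The reads behind it were 17, 15 and 12 in control and 35, 31 and 31 with SAR.

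MIR302C had the largest difference and also the widest spread. It was at 10.7, 6.62 and 5.45 FPKM in control, where replicate 1 stood above the other two, and at 37.0, 40.8 and 22.4 FPKM with SAR, where replicate 3 was lowest. The means were 7.61 ± 2.78 and 33.4 ± 9.72 FPKM, and the log2 fold change was 2.13 (standard error 0.301), on 16, 11 and 7 reads in control and 42, 47 and 28 with SAR.

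MIR302B, the first gene of the cluster and the one that shares bases with a host exon, had the lowest level in every library but control replicate 2. It was at 3.75, 6.73 and 5.08 FPKM in control and at 18.1, 21.0 and 11.2 FPKM with SAR. The groups did not overlap, but SAR replicate 3 was again the lowest of its group. The means were 5.19 ± 1.49 and 16.8 ± 5.05 FPKM, and the log2 fold change was 1.66 (standard error 0.280), on 6, 12 and 7 reads in control and 22, 26 and 15 with SAR.

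MIR302CHG was at 0.676, 0.551 and 0.499 FPKM in control and at 0.968, 0.556 and 0.878 FPKM with SAR. SAR replicate 2 lay within the control range, and the other two SAR libraries lay above it. The means were 0.575 ± 0.0908 and 0.801 ± 0.217 FPKM, with a log2 fold change of 0.39 (standard error 0.251). With each library left out it ran from 0.25 (without SAR replicate 1) to 0.61 (without SAR replicate 2). Only 11, 10 and 7 reads in control and 12, 7 and 12 with SAR lie behind these values.

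LARP7, a protein that binds and stabilizes the 7SK small nuclear RNA, was at 81.8, 92.5 and 79.0 FPKM in control and at 83.4, 88.0 and 83.4 FPKM with SAR. The SAR libraries lay within the control range, with means of 84.4 ± 7.11 and 84.9 ± 2.66 FPKM and a log2 fold change of 0.01 (standard error 0.0704). It had between 5559 and 9023 reads per library.

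**Figure D2:**
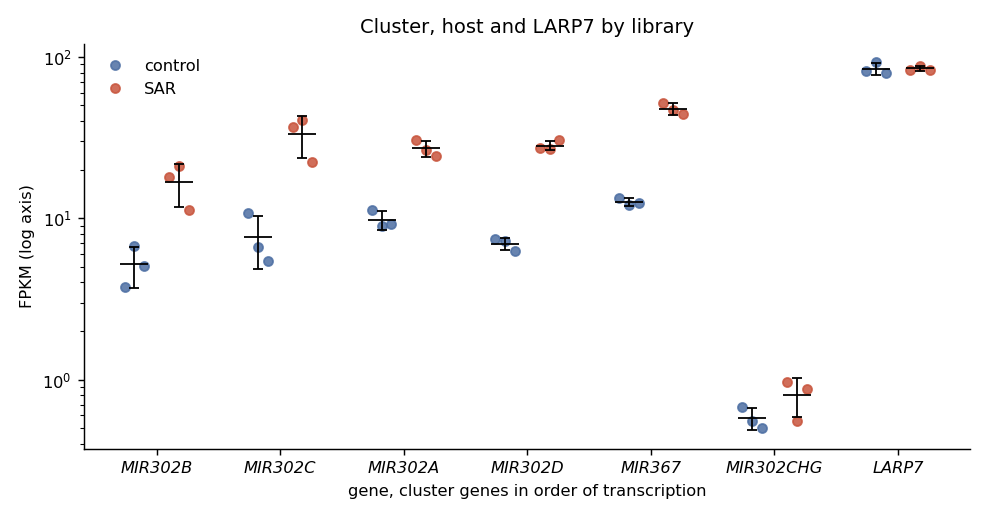
Points plot the FPKM of each gene (log axis) in the 3 control (blue) and 3 SAR (red) libraries, and the bars mark the mean and SD. For each of the 5 miRNA genes all SAR points lie above all control points, from MIR302B at 5.19 and 16.8 FPKM to MIR367 at 12.6 and 47.6, while the points of MIR302CHG and LARP7 overlap.

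Of the 7 genes, 5 were higher with SAR and 0 lower under the call used for all genes (limma, adjusted p under 0.05 with a difference of more than 1 on the log2 scale), which 3.41% of all tested genes passed as higher and 1.58% as lower. The same 5 had all 3 SAR libraries above all 3 control libraries, as had 35.5% of all tested genes. Nothing is read from these shares, because the genes were chosen with these values in view. Over all tested genes the log2 fold change had a median of 0.12, and after rescaling the libraries by the median ratio the 5 genes were at 1.34 to 2.01 and LARP7 at -0.11.

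Summed over the 5 genes, control libraries held 70, 70 and 50 reads and SAR libraries 189, 189 and 167. Per 1000000 reads of the library this was 3.20, 2.87 and 2.65 in control and 11.3, 11.2 and 9.08 with SAR, with means of 2.90 ± 0.275 and 10.5 ± 1.25, a ratio of 3.62. Pooling the reads of each group gave a ratio of 3.60 with a 95% interval of 3.04 to 4.26, which covers counting error only. For single genes it ran from 2.76 for MIR302A (1.92 to 4.04) to 4.31 for MIR302C (2.92 to 6.52). These intervals overlapped, so the order of the genes by size of difference is uncertain. The same ratio was 1.39 for MIR302CHG (0.805 to 2.40) and 0.999 for LARP7 (0.979 to 1.02). The interval of the host thus held both no change and a rise of over 2 times, and at its depth of 28 and 31 reads the difference was not detectable. For LARP7, with 22145 and 17650 reads, the interval stayed within about 2% of 1.

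**Figure D3:**
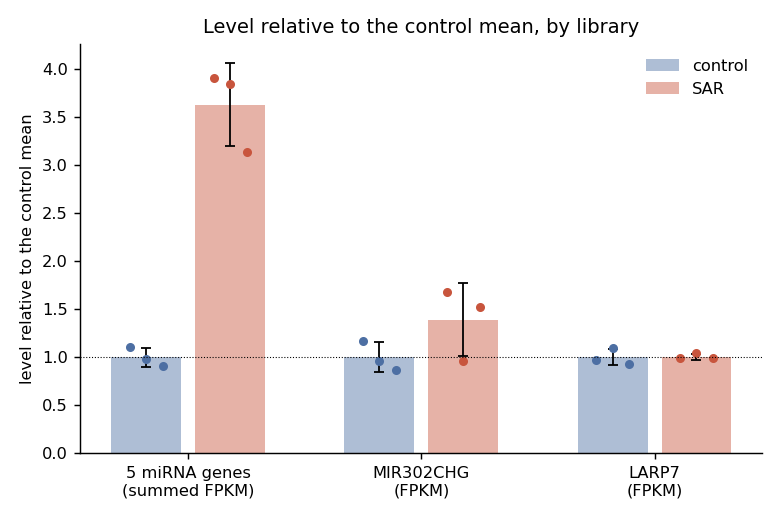
Bars plot the mean level relative to the control mean, with SD and the 6 libraries as points, for the summed FPKM of the 5 miRNA genes and for the FPKM of MIR302CHG and LARP7. The summed miRNA genes stand at 3.63 times the control mean with SAR, MIR302CHG at 1.39 and LARP7 at 1.01.

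The reads of the cluster can also be set against those of the exons around it. These ratios describe the same chosen values, and those per host read rest on 7 to 12 host reads per library. There were 6.36, 7.0 and 7.14 miRNA gene reads for each host read in control and 15.8, 27.0 and 13.9 with SAR. Per 1000 LARP7 reads there were 9.77, 7.76 and 8.39 in control and 34.0, 31.7 and 27.2 with SAR. LARP7 exon reads did not move with the cluster, and unspliced LARP7 RNA was not measured by itself.

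The 5 genes took about the same shares of the cluster's reads in both groups. MIR367 held 29.7 ± 1.98% of them in control and 30.9 ± 2.20% with SAR, and MIR302D 16.3 ± 0.756% and 18.5 ± 3.67%. MIR302B held 13.2 ± 4.34% and 11.5 ± 2.39%, and MIR302C 17.5 ± 4.70% and 21.3 ± 4.13%. MIR302A held a somewhat lower share with SAR, at 24.3%, 21.4% and 24.0% in control and 18.5%, 16.4% and 18.6% with SAR. This rests on 12 to 35 reads per library and was not tested. The genes are 68 to 73 bases long and collect fragments that reach beyond their ends, so their FPKM cannot be compared with those of long genes. Neighbours lie close together and MIR302B shares bases with a host exon, so a fragment can reach more than 1 gene. How such fragments were counted is not known here, so levels within the cluster may not be comparable either.

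Among the 461 miRNA genes of the table, ranked by mean FPKM, the 5 took places 10 (MIR367), 13 (MIR302A), 15 (MIR302C), 17 (MIR302D) and 19 (MIR302B) in control. With SAR they took places 3 (MIR367), 6 (MIR302C), 7 (MIR302D), 8 (MIR302A) and 10 (MIR302B). The median miRNA gene was at 0.235 FPKM in control and 0.267 with SAR.

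Of the other 456 miRNA genes, 132 were tested, and 6 (MIR106B, MIR200A, MIR4768, MIR570, MIR6835 and MIR708) rose and 6 (MIR1297, MIR3145, MIR3153, MIR3662, MIR5587 and MIR593) fell. Their median log2 fold change was -0.23, against 0.12 for all tested genes, of which 3.41% rose and 1.58% fell. Most of the 12 rest on a handful of reads, and the number that fell was 2 without control replicate 1 and 1 without control replicate 2, while the number that rose was 3 without SAR replicate 2. MIR200A, of the miR-200 family that holds cells in an epithelial state, had 0 reads in all control libraries and 1, 3 and 3 with SAR. Its log2 fold change was 3.85, and 1.27 or 7.07 with a pseudocount of 1 or 0.01. MIR106B also had 0 reads in all control libraries, and MIR3145 had 0 in all SAR libraries. Genes such as these passed the filter on low values only through the group where they were high, so nothing is read from their calls. MIR3153 fell from 29, 34 and 18 reads to 4, 10 and 7 (log2 fold change -1.65, adjusted p = 0.00899), and MIR4768 rose from 5, 6 and 2 reads to 16, 8 and 8 (1.64, adjusted p = 0.0205). Reads on such genes within longer transcripts can come from the transcript around them.

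Few other miRNA genes that carry the 2 seeds are in the table. RefSeq lists 8 other genes with the seed AAGUGCU, of which the table holds MIR373, with 1 read in control replicate 2 and 0 in the others. Of the 6 other genes with the seed AUUGCAC the table holds MIR32, with 1 read in SAR replicate 2, and MIR25. MIR25 had 11, 2 and 10 reads in control and 14, 17 and 9 with SAR, which overlapped (log2 fold change 1.37, standard error 0.685, adjusted p = 0.162).

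Host transcripts of other miRNA genes give the comparison nearest to MIR302CHG. The table holds 64 of them, of which 15 were tested, and 3 rose and 0 fell, with a median log2 fold change of 0.63. Over all tested genes 3.41% rose and 1.58% fell, with a median of 0.12. At an adjusted p under 0.05 and any fold, 7 of the 15 were above control and 0 below it, beside 23.7% and 9.55% of all tested genes. For 9 of the 15 all SAR libraries lay above all control libraries, beside 35.5% of all tested genes. MIR503HG, from which the cell cycle regulator miR-503 comes, rose from 21, 21 and 12 reads to 86, 65 and 105 (log2 fold change 2.21, adjusted p = 0.00128). MIR130AHG rose by 1.08 (adjusted p = 0.0439) and MIRLET7IHG by 1.05 (adjusted p = 0.0225), and both missed the call with control replicate 2, control replicate 3, SAR replicate 1 or SAR replicate 2 left out, where the count was 1, as it was with a pseudocount of 1, with no filter and after rescaling. MIR210HG (0.67, adjusted p = 0.0166) and MIR222HG (0.87, adjusted p = 0.0206) stayed below the fold threshold. MIR17HG, the host of the miR-17-92 cluster that drives proliferation, had a log2 fold change of 0.93 (adjusted p = 0.0280) and did not pass it either.

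The first promoter of MIR302CHG (chr4:112650002-112650301, minus strand, RefSeq on GRCh38.p14, 250 bases before to 50 after the start) is shown because it holds the letters bound by POU5F1 and SOX2, which are measured here. The capitals mark an octamer, ATGCAAAT, and the SOX word ATTGTT that overlaps it.
MIR302CHG promoter 1: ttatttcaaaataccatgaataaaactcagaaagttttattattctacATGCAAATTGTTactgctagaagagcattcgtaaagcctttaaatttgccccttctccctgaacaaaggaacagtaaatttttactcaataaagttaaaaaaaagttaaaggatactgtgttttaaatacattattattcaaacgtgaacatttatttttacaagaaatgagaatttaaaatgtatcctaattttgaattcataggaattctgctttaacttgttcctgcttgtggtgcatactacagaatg
On either strand, the octamer word occurs in 1.77% of 35116 RefSeq promoter windows of this kind and the SOX word in 10.1%. A second start (chr4:112648654-112648953) lies just before MIR302B, and its window holds the TEAD word GGAATG (in 14.0% of windows), the GATA word AGATAA (10.3%) and the SMAD word CAGAC (45.3%), each once. The FOXA word TGTTTAC (3.42%) is in neither. The words were chosen after the sequence had been seen, and a match is a description of letters, not of binding.

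The transcription factors that are known to act on this locus did not move together. POU5F1 was at 220.2, 138.4 and 183.0 FPKM in control and 221.9, 221.7 and 214.1 with SAR, which overlapped (log2 fold change 0.31, adjusted p = 0.167). SOX2 was at 28.9, 16.1 and 21.2 FPKM and at 37.0, 43.2 and 39.1, with no overlap and a log2 fold change of 0.88 that did not pass the fold threshold (adjusted p = 0.0153). NANOG fell from 16.6, 13.3 and 14.2 FPKM to 5.77, 6.54 and 5.36, by 1.30 on the log2 scale (adjusted p = 6.72e-04).

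Of 9 markers of pluripotent cells, 9 were tested, 0 rose and 1 (NANOG) fell, with a median log2 fold change of 0.20. Without control replicate 1 the number that rose was 1, SOX2, at 1.10. At an adjusted p under 0.05 and any fold, 3 (SOX2, LIN28A and TDGF1) were above control and 1 (NANOG) below it. Of all tested genes, 23.7% and 9.55% were. DPPA4 (0.23), ZFP42 (0.37), DNMT3B (0.00) and L1TD1 (-0.24) were not called, and neither were TDGF1 (0.20), the Nodal co-receptor, and LIN28A (0.20), an RNA-binding protein that blocks let-7 processing. Bulk RNA cannot tell a change in the number of cells of a type from a change in the RNA per cell, and the part of remaining pluripotent cells in the levels of the cluster was not tested.

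Of the 9 DE markers, 3 rose and 4 fell, beside 3.41% and 1.58% of all tested genes, with a median log2 fold change of -0.58. FOXA2, a pioneer factor of endoderm, rose by 1.44 (adjusted p = 1.07e-04), SOX17 by 1.06 (adjusted p = 0.00724) and HHEX by 1.03 (adjusted p = 0.00467). GSC fell by 1.48, EOMES by 1.36, CER1 by 1.28 and GATA4 by 1.05, all with adjusted p of at most 0.00281. CXCR4 (-0.51) and GATA6 (-0.58) did not pass the fold threshold. SOX17 and HHEX missed the call without SAR replicate 1 (0.87 for each), as HHEX did without control replicate 1 (0.95) and GATA4 without SAR replicate 3 (-0.89). After rescaling SOX17 (0.93) and HHEX (0.90) also missed it, as GATA4 (-0.95) did with a pseudocount of 1.

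Of 7 mesoderm markers 4 were tested, and TBXT, the primitive streak factor, rose from 3.79, 3.40 and 3.34 FPKM to 14.0, 11.4 and 9.69 (log2 fold change 1.69, adjusted p = 5.74e-04). TBX6 (0.82), KDR (-0.22) and PDGFRA (0.22) were not called, and MESP1, HAND1 and MEOX1 were too low to test. Of 5 neural ectoderm markers OTX2 (-0.14) and NES (0.22) were tested and not called, and PAX6, SOX1 and ZIC1 were too low.

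The genes that turn a miRNA precursor into an active miRNA differed little between the groups. Of 24 genes of miRNA processing and silencing, 24 were tested, and 0 rose and 0 fell. Their median log2 fold change was 0.03, against 0.12 for all tested genes. DROSHA, which cuts the hairpin out of the precursor, was at 12.1, 12.0 and 12.3 FPKM in control and 12.8, 12.3 and 12.2 with SAR (0.03, standard error 0.0504). Its partner DGCR8 was at 3.23, 2.86 and 3.24 FPKM and 3.86, 4.17 and 3.75, above control in each library (0.33, adjusted p = 0.0239). DICER1, which makes the final cut, had a log2 fold change of -0.23 (adjusted p = 0.0508) and its partner TARBP2 one of 0.38 (adjusted p = 0.00630).

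TUT4, which adds uridines to let-7 precursors bound by LIN28A, had the largest difference of these genes. It was at 9.86, 11.8 and 10.2 FPKM in control and 5.90, 5.77 and 6.91 with SAR, without overlap, but its log2 fold change of -0.77 (adjusted p = 0.00255) did not pass the fold threshold. Without regard to fold, 4 of the 24 (DGCR8, TARBP2, LIN28A and TRIM71) were above control and 2 (TUT4 and AGO2) below it at an adjusted p under 0.05, as were 23.7% and 9.55% of all tested genes. AGO2, the Argonaute protein that can cut its target, had a log2 fold change of -0.23 (adjusted p = 0.0455), and TRIM71, a let-7 target, one of 0.35 (adjusted p = 0.0469).

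Of 21 genes that have been reported as targets of miR-302, 20 were tested, and 0 rose and 1 fell. Their median log2 fold change was 0.02, against 0.12 for all tested genes. The 1 that fell was LEFTY1, a secreted inhibitor of Nodal, from 316.9, 278.4 and 304.0 FPKM to 68.0, 70.6 and 80.3 (-2.04, adjusted p = 7.96e-05). Its close relative LEFTY2 was at 546.2, 546.9 and 566.0 FPKM and at 535.5, 517.7 and 498.7 (-0.10, standard error 0.0564, adjusted p = 0.220). LEFTY1 and LEFTY2 are near-identical copies, so reads could be split between them in the authors' counting.

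The sites in 4 of these genes are shown because genes with the same 8 letters differed in direction. Capitals mark the complement of the miR-302 seed, followed by A, in the 3′ untranslated region (UTR) of the transcript with the longest coding sequence in GENCODE 29.
LEFTY1: ctgcactatattctaAGCACTTAcatgtg
LEFTY2: ccatcacccatcctaAGCACTTAcgtgag
TGFBR2: atatcaaaagtctcaAGCACTTAttttta
BTG1: acaagacttttacctAGCACTTAaatatg
LEFTY1 and LEFTY2 each hold 1 such 8-base match, yet LEFTY1 fell and LEFTY2 was not called. TGFBR2, a TGF-beta receptor, was at 1.75, 1.53 and 1.66 FPKM in control and 1.16, 1.11 and 1.39 with SAR (-0.41, adjusted p = 0.0434). BTG1, an inhibitor of proliferation, differed the other way, at 9.10, 7.87 and 8.65 FPKM and 15.3, 14.4 and 14.2 (0.77, adjusted p = 9.19e-04). Neither passed the fold threshold. Reported targets with such a match that are not shown were MBD2 (0.03, adjusted p = 0.734) and LATS2 (-0.19, adjusted p = 0.0904). Among all reported targets with this match, only BTG1 was above control at an adjusted p under 0.05, and LEFTY1 and TGFBR2 were below it.

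Other reported targets also lay on both sides. CDKN1A, an inhibitor of cell cycle kinases, had a log2 fold change of -0.58 (adjusted p = 0.0449) and RBL2, a relative of the retinoblastoma protein, one of -0.33 (adjusted p = 0.0403). CCND1, a cyclin that starts the cell cycle, had one of 0.67 (adjusted p = 0.0309), and CDK2, a cell cycle kinase, one of -0.30 (adjusted p = 0.0151). LATS2, a kinase of the Hippo pathway with 2 of the 8-base matches, was at 6.14, 6.00 and 6.13 FPKM and 4.91, 5.32 and 5.79 (-0.19, adjusted p = 0.0904). BTG2 (0.38, adjusted p = 0.00681) and TOB2 (0.40, adjusted p = 0.0120), relatives of BTG1, also differed without passing the fold threshold. Without regard to fold, 4 of the 20 were above control and 6 below it at an adjusted p under 0.05, again beside 23.7% and 9.55% of all tested genes.

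**Figure D4:**
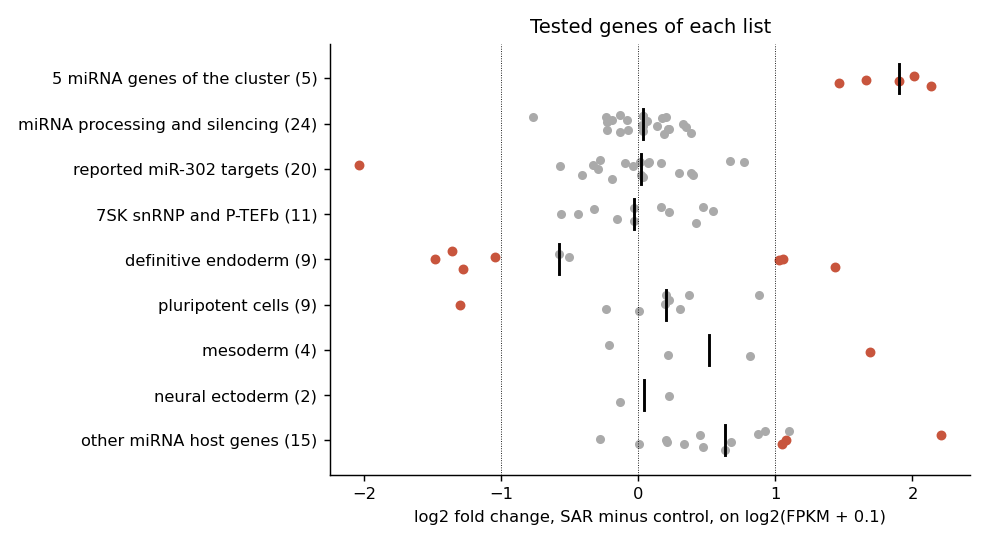
Each point plots the log2 fold change of a tested gene, SAR minus control, on the log2(FPKM + 0.1) scale for the 5 miRNA genes and 8 gene lists, with called genes in red, the others in grey and the list's median as a bar. The 5 miRNA genes lie between 1.46 and 2.13. The medians of miRNA processing genes (0.03) and reported targets (0.02) lie near 0, below that of all tested genes (0.12).

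Across all tested genes with a 3′ UTR, those with an 8-base match to the miR-302 seed (AGCACTTA) had slightly lower fold changes than those without. Of 418 genes with a match 7 (1.67%) rose and 6 (1.44%) fell, and of 12114 without, 362 (2.99%) rose and 106 (0.875%) fell. The median log2 fold change was 0.03 with a match and 0.12 without, a difference of -0.09. The UTRs were not alike in length, however, with a median of 3283 bases with a match and 948 without. Among the longest of 3 classes of UTR length, which held 318 of the 418 genes, the medians were 0.03 and 0.05, a difference of -0.02.

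For the miR-367 seed (8-base match GTGCAATA) the 408 genes with a match had a median of 0.06, against 0.12 for the 12124 without. Of the 408, 8 (1.96%) rose and 6 (1.47%) fell. In the longest class of UTR the medians were 0.05 in both sets. These differences are descriptions, with no test.

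**Figure D5:**
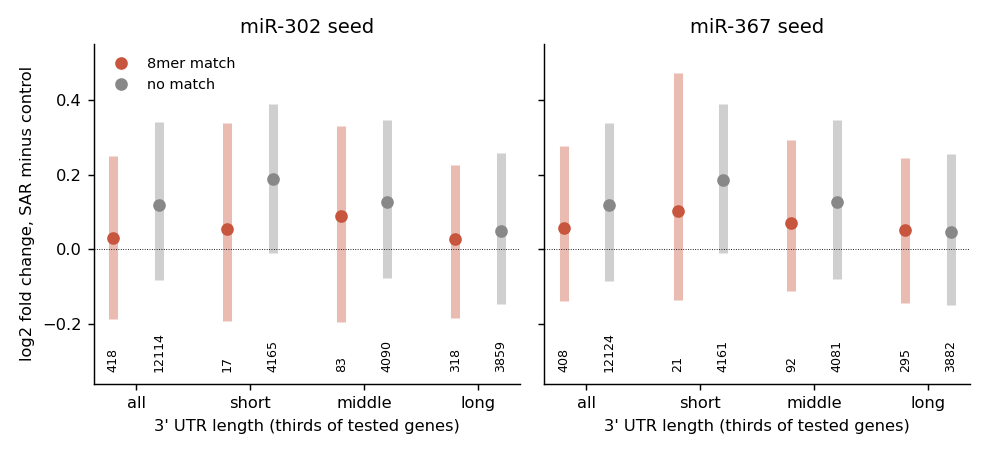
Dots plot the median log2 fold change, SAR minus control, and bars the range from the first to the third quartile, for genes with (red) and without (grey) an 8-base seed match, for all UTRs and by class of UTR length, with the number of genes under each bar. The medians differ by -0.09 for miR-302 over all UTRs and by -0.02 in the longest class.

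LARP7 works in a complex, the 7SK small nuclear ribonucleoprotein, that holds the kinase P-TEFb inactive until transcription needs it. Of 11 other genes of this system that were tested 0 rose and 0 fell, with a median log2 fold change of -0.03. HEXIM1, the protein that inhibits P-TEFb, was at 11.6, 13.3 and 12.1 FPKM in control and 19.7, 17.7 and 16.8 with SAR (0.55, adjusted p = 0.00398), and MEPCE, which caps the 7SK RNA, had a log2 fold change of 0.42 (adjusted p = 0.0126). AFF1 (-0.56, adjusted p = 0.0105), AFF4 (-0.44, adjusted p = 0.0115) and ELL2 (-0.32, adjusted p = 0.0420), of the super elongation complex that uses released P-TEFb, were lower. The kinase subunit CDK9 had a log2 fold change of 0.23 (adjusted p = 0.0627). The 5 with adjusted p under 0.05 (2 above and 3 below control, beside 23.7% and 9.55% of all tested genes) stayed below the fold threshold.

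The neighbours of the cluster were mostly low or alike in both groups. Within 500000 bases the table holds 25 genes, of which 7 were tested. Of these 1 rose and 0 fell, beside 3.41% and 1.58% of all tested genes. The 1 that rose was ENSG00000250046, a long noncoding RNA on the minus strand 44490 bases away (chr4:112693047-112706810), from 15, 28 and 24 reads to 43, 35 and 44 (log2 fold change 1.16, adjusted p = 0.00909). ZGRF1, a helicase gene next to LARP7, had a log2 fold change of -0.15 (adjusted p = 0.160), and TIFA, an adaptor of innate immune signaling, one of 0.57 (adjusted p = 0.0196). AP1AR (-0.04), AP1AR-DT (0.36), RPL7AP30 (0.19) and ANK2 (-0.14) were not called.

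The genes most closely correlated with the summed FPKM of the 5 miRNA genes over the 6 libraries were FOXJ1, CADPS, TRIM2, LINC02387 and CARD8. Pearson's r was 0.998 to 0.999 on the log2 scale, and it does not measure the size of a difference. The log2 fold changes were 4.40 for FOXJ1, 1.28 for LINC02387, 1.03 for CADPS, 0.53 for CARD8 and 0.40 for TRIM2. CARD8 and TRIM2 stayed below the fold threshold. FOXJ1, a regulator of motile cilia, was at 0.463 ± 0.119 FPKM in control (SD, n = 3) and 12.0 ± 3.28 with SAR, where replicate 3 was lowest at 8.28, as it was for the sum of the cluster. The 6 points fall into the 2 groups and share their libraries, and 1372 of 13484 genes (10.2%) had an r above 0.95, so these names describe a pattern that many genes had.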

How the data were processed

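The members, the gene lists and the tests were chosen with earlier results of these data known. The authors sequenced oligo(dT)-selected RNA and deposited FPKM per gene and library, without pooling. The submitters' processing notes name HISAT2, Subread, featureCounts, DESeq2 and GRCh38.p13; versions, annotation release and strand setting are not given in the sources used here. Groups and replicate numbers came from the labels.

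FPKM are not counts, so limma 3.58.1 in R 4.3.3 (lmFit, eBayes with an intensity trend) was run on log2(FPKM + 0.1). It used the 16371 genes that averaged at least 0.5 FPKM, with Benjamini-Hochberg adjustment, no replicate block, and a call at adjusted p under 0.05 where the log2 fold change exceeded 1 in size. This scale understates the change of low genes. All adjusted p-values in the text are from this fit. The fit was tested on simulated data.

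Whole reads were derived from the FPKM steps. A length that gave whole numbers in all 6 libraries (tolerance 0.02), with 0 allowed, was found for 99.97% of genes. Some genes, such as ANK2, were given 0 reads at an FPKM above 0, so this share is not a rate of true recovery. For each miRNA gene of the cluster and for MIR302CHG the length equalled the GENCODE 29 exon length. The gene length used equalled the GENCODE 29 exon length for 23399 genes and was found by search for 16983, and 14 had none. Intervals cover counting error only; that of a pooled ratio is exact (95%). Python 3.11.15, pandas 2.3.3, numpy 2.4.6, scipy 1.17.1 and matplotlib 3.10.9 were used. Sequences came from RefSeq and positions and UTRs from GENCODE 29. UTRs were put into 3 length classes of equal size.

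Named were the 7 members, list genes that passed the call, up to 5 genes per list with the smallest adjusted p, and the markers. Also named were genes with a shared seed, genes within 500000 bases, and the 5 genes most correlated with the cluster (mean of at least 1 FPKM). DROSHA, DICER1, CDK9, LEFTY2, LATS2 and other targets were named after their values were seen. Alternatives were pseudocounts of 1 and 0.01, no filter, median-ratio rescaling, a filter at a mean of 1 FPKM, no trend, a replicate block, voom on recovered reads, each library left out, a 7-base seed match, and, chosen after seeing the data, each class of UTR length.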

Additional observations from a re-analysis of the deposited data

How the results depend on the processing

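The log2 fold changes of the members kept their direction under all alternatives run, apart from LARP7, which was at 0.01, between -0.03 and 0.08 with each library left out, and at -0.11 after median-ratio rescaling. MIR302D moved from 2.01 to 1.88 with a pseudocount of 1 and to 1.89 after rescaling, and MIR367 from 1.90 to 1.78 after rescaling, by more than the spread within groups but by far less than the fold change. MIR302CHG could not be fitted with a minimum mean of 1 FPKM, and elsewhere lay between 0.19 and 0.61. The summed FPKM of the 5 miRNA genes stood at 3.48 to 3.88 times control with each library left out and at 3.34 after rescaling. Over all genes, 559 rose and 259 fell; with a pseudocount of 1 these counts were 169 and 141, 369 rose with a minimum mean of 1 FPKM, and rescaling gave 398 and 364. Of the hand-written lists 4 genes rose and 6 fell; 2 rose after rescaling, and 2 to 4 with each library left out. The miR-302 seed difference of -0.09 was -0.0552 for a 7-base match and -0.134, -0.0362 and -0.0212 in the short, middle and long classes of UTR, and that of miR-367 was 0.0042 in the long class. Same-numbered libraries shared little deviation (correlations 0.073, 0.003 and 0.025 over 16371 genes), which cannot show that the samples were unpaired. The summed FPKM of the 5 miRNA genes fell from replicate 1 to replicate 3 in both groups. A replicate block gave a lower standard error for MIR302A (0.0634), MIR302B (0.205), MIR302C (0.159) and MIR367 (0.0598) and a higher one for MIR302D (0.0970). With this block 546 genes rose and 274 fell, and the lists gave 4 and 6. Calls of other miRNA genes as lower went from 6 to 10 with it. These were 2 with a pseudocount of 0.01, 3 with no intensity trend, and 1 to 8 with each library left out. Reads of 6 to 59 per miRNA gene and library limit the precision of each single gene.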
